A study of Rattus norvegicus with 21 samples.

Results

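Wfdc1, Ctxn3, Faim2, Frem3, Pcp4, Lims2, Lix1, Prima1 and Megf6 are 9 genes whose messenger RNA was nearly lost from primary rat astrocytes after knockdown of TDP-43. They were picked by symbol from the 17311 genes of the poly(A) count table because their levels were far lower with TDP-43 siRNA than with scrambled siRNA, in cells with or without ATP. The knockdown values below are therefore the values that chose the genes, and they are given as a description with no test. All 9 passed the filter on low counts.

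The study used astrocytes from neonatal Sprague-Dawley pups at low passage, transfected with lipid-carried siRNA. Its poly(A) libraries fall into 3 groups of 3: cells given TDP-43 siRNA and ATP, cells given TDP-43 siRNA alone, and cells given a scrambled siRNA as control. All groups are wild-type cells of the same strain and all were transfected. The immunoprecipitation libraries of the same study were not used here. No group of the study is labelled as given ATP without the knockdown, and no source used here states how much ATP was given or for how long. The labels name 1 TDP-43 siRNA condition, so effects of the siRNA on other targets cannot be told apart from loss of TDP-43. Nothing says that the 3 libraries of a group came from separate cultures, so the spread that p-values rest on may be technical.

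TDP-43, encoded by Tardbp, is a nuclear RNA-binding protein that prefers UG-rich sequence and acts on splicing, polyadenylation and stability of many transcripts. It is lost from the nucleus and aggregates in affected neurons and glia in most amyotrophic lateral sclerosis and in a large share of frontotemporal dementia. Astrocytes support neurons by clearing transmitter and buffering ions and water, and the roles of TDP-43 in them are less well described than those in neurons.

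In units of 1e+06 counts, library totals were 26.7, 29.3 and 20.2 with TDP-43 siRNA and ATP, 23.6, 15.3 and 26.6 with TDP-43 siRNA, and 40.3, 11.5 and 15.7 with scrambled siRNA. Levels are given as CPM, counts scaled to a library of 1e+06, after adjustment by edgeR's trimmed mean of M-values, and they are not divided by transcript length, so levels of different genes are not compared. Tardbp itself had 24.1, 28.8 and 25.6 CPM with TDP-43 siRNA and ATP, 29.6, 20.7 and 24.1 CPM with TDP-43 siRNA, and 179, 158 and 172 CPM with scrambled siRNA. The 6 libraries labelled as knocked down were all below the 3 controls, with 15.5% ± 1.40 of the control level left with ATP and 14.6% ± 2.66 left without it (SD, n = 3 each). The astrocyte genes Gfap and Slc1a3 averaged 2585 and 649 CPM with TDP-43 siRNA and ATP, 2329 and 570 CPM with TDP-43 siRNA, and 2489 and 978 CPM with scrambled siRNA.

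The promoter sequences of 3 of the 9 genes are shown to give the range of base composition at their starts. The sequences run from 250 bases before to 50 bases after the annotated start, in the GRCr8 assembly. They were taken from RefSeq, with CpG dinucleotides in capitals. Ctxn3 (chr18:53129255-53129554, plus strand) is the member with an entry that had the lowest share of its control level left. Lix1 (chr1:66801794-66802093, plus strand) and Prima1 (chr6:128154587-128154886, minus strand) have the fewest and the most CpG dinucleotides of the set.
Ctxn3: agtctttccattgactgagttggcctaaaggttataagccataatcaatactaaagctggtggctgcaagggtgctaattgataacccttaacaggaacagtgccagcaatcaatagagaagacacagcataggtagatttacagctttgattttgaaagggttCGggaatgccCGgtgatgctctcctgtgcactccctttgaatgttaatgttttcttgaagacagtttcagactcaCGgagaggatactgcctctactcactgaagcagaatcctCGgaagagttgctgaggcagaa
Lix1: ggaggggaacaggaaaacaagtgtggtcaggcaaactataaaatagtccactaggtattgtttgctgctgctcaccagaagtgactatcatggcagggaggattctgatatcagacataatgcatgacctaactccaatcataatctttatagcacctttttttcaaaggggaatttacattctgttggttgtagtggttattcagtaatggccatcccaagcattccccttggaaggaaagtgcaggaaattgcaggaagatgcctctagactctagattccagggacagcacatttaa
Prima1: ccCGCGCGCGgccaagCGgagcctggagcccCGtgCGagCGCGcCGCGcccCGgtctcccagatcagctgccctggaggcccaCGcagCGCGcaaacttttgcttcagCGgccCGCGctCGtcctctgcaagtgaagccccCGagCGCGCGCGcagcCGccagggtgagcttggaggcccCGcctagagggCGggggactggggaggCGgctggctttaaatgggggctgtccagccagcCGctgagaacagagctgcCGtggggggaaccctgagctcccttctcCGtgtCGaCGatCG

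Of the 9 genes, 7 had a promoter entry, with 8 entries in all because Lims2 has a pair. Wfdc1 and Faim2 had none. The Lix1 window held 0 CpG dinucleotides at 42.3% GC, the Ctxn3 window 4 at 44.3% GC, and the Prima1 window 34 at 72.0% GC. Megf6 held 25 CpG dinucleotides, Frem3 held 12, the Lims2 entries held 8 and 9, and Pcp4 held 7. The median over promoters of the tested genes was 20 CpG dinucleotides at 61.0% GC, so the members lay on both sides of it and 6 of the 8 windows lay below it. The 7 members with an entry therefore differed widely in CpG content, from 0 to 34 dinucleotides per window.

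The same windows were searched for 8 short motifs on both strands. No motif was present in all 8 entries. CCAAT was found in 4 entries (Lix1, Megf6, Pcp4 and Frem3), against 37.0% of the promoters of tested genes, and in 1 when only the RNA-sense strand was read. The GC box GGGCGG was found in 2 entries (Megf6 and Prima1), against 61.7% of the promoters of tested genes. The E-box CAGCTG, which reads the same on both strands, was also in 2 entries (Prima1 and Frem3), against 16.5%. TATAAA was found in Lix1 alone, against 6.86%. The CArG box of serum response factor, TGACGTCA, TGANTCA and TGTGTG were in 0 of 8 entries, against 1.23%, 3.19%, 5.03% and 15.5%. These matches describe letters in a window and show no site in use.

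Every member was far below its control level in all 6 knockdown libraries. The share of the scrambled level left was 2.44% to 10.3% with TDP-43 siRNA and ATP (median 7.02%) and 2.55% to 11.4% with TDP-43 siRNA (median 7.94%). Ctxn3 and Wfdc1 were the most depleted, each with less than 5% left in both groups. The closest approach of any member to its controls was that of Frem3 with ATP, where the lowest control library was still 5.28-fold above the highest knockdown library. Without ATP it was that of Lix1, with a gap of 5.59-fold. In bulk RNA, fewer cells expressing a gene and less RNA per cell cannot be told apart.

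**Figure D1:**
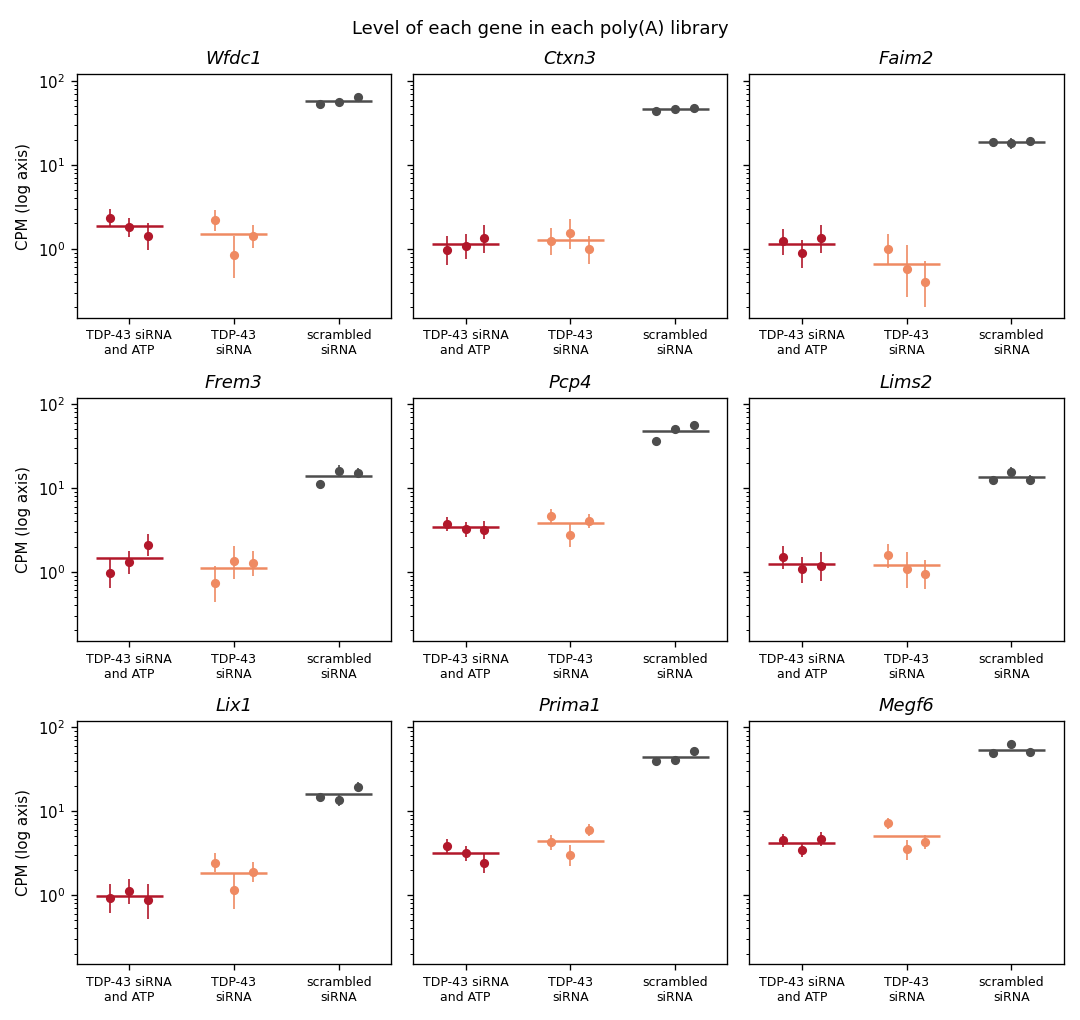
Level of each of the 9 genes in each poly(A) library, in CPM on a log axis, with a panel for each gene. Points are libraries, vertical lines are exact 95% Poisson intervals of the count, and horizontal lines are group means. In every panel the 3 scrambled libraries stand above all 6 knockdown libraries.

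Among the secreted and matrix proteins, Wfdc1 encodes a protein with a whey acidic protein (WAP) domain, a fold shared by secreted protease inhibitors. Wfdc1 had 2.33, 1.80 and 1.42 CPM with TDP-43 siRNA and ATP, 2.20, 0.832 and 1.42 CPM with TDP-43 siRNA, and 53.0, 56.6 and 64.6 CPM with scrambled siRNA. The knockdown groups overlapped each other, the lowest library was replicate 2 of TDP-43 siRNA, and none came near a control. The share left was 3.19% ± 0.791 with ATP and 2.55% ± 1.18 without it (SD, n = 3 each), and the fitted log2 fold changes were -4.95 (SE 0.23) and -5.23 (SE 0.24). The raw counts behind these levels were 65, 57 and 31 with TDP-43 siRNA and ATP, 53, 13 and 39 with TDP-43 siRNA, and 1968, 580 and 937 with scrambled siRNA.

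Frem3 encodes an extracellular matrix protein of the FRAS and FREM family, which links basement membranes to the tissue beneath. Frem3 had 0.970, 1.30 and 2.11 CPM with TDP-43 siRNA and ATP, 0.746, 1.34 and 1.27 CPM with TDP-43 siRNA, and 11.1, 15.997 and 15.2 CPM with scrambled siRNA. Replicate 3 of the ATP group was the highest knockdown library, and the knockdown groups overlapped. Frem3 kept the largest share of its control level with ATP among the 9, at 10.3% ± 4.14, and 7.94% ± 2.31 without it (SD, n = 3 each). Its fitted log2 fold change was -3.28 (SE 0.31) with ATP and -3.65 (SE 0.32) without it.

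Megf6 encodes a large secreted protein built of many epidermal growth factor-like repeats. Megf6 had 4.53, 3.45 and 4.72 CPM with TDP-43 siRNA and ATP, 7.25, 3.52 and 4.29 CPM with TDP-43 siRNA, and 49.6, 63.4 and 50.5 CPM with scrambled siRNA. Replicate 1 of TDP-43 siRNA stood above the other knockdown libraries, which otherwise overlapped. Megf6 kept 7.76% ± 1.25 of its control level with ATP and 9.21% ± 3.61 without it (SD, n = 3 each). The log2 fold changes were -3.69 (SE 0.22) for Megf6 with ATP and -3.42 (SE 0.22) without it.

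Among the membrane proteins, Ctxn3 encodes a small single-pass protein of the cortexin family, named for its expression in brain cortex. Ctxn3 had 0.970, 1.08 and 1.33 CPM with TDP-43 siRNA and ATP, 1.24, 1.54 and 0.983 CPM with TDP-43 siRNA, and 43.6, 46.4 and 48.0 CPM with scrambled siRNA. The control libraries were close together and the knockdown libraries all lay below 2 CPM. Ctxn3 kept 2.44% ± 0.400 of its control level with ATP and 2.72% ± 0.601 without it (SD, n = 3 each). The log2 fold changes were -5.36 (SE 0.19) with ATP and -5.23 (SE 0.19) without it.

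Faim2 encodes a multi-pass membrane protein that protects neurons from death signalled through the Fas receptor. Faim2 had 1.22, 0.887 and 1.33 CPM with TDP-43 siRNA and ATP, 0.994, 0.576 and 0.400 CPM with TDP-43 siRNA, and 18.9, 18.045 and 19.4 CPM with scrambled siRNA. The knockdown groups overlapped, since replicate 1 of TDP-43 siRNA stood above replicate 2 of the ATP group. The share left was 6.10% ± 1.23 with ATP and 3.50% ± 1.63 without it (SD, n = 3 each), from 34, 28 and 29 counts with ATP and 24, 9 and 11 counts without it. On the log2 scale the fitted fold changes were -4.04 (SE 0.27) with ATP and -4.83 (SE 0.29) without it. The Faim2 counts without ATP were among the smallest of the set, so its level there is among the least precise. Faim2 overlaps LOC134479571 in the annotation, and whether the counting used strand is not given, so shared reads cannot be told apart.

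Prima1 encodes the proline-rich anchor that tethers acetylcholinesterase to membranes in brain. Prima1 had 3.88, 3.17 and 2.43 CPM with TDP-43 siRNA and ATP, 4.27, 3.01 and 5.97 CPM with TDP-43 siRNA, and 40.1, 40.7 and 52.7 CPM with scrambled siRNA. Replicate 3 was highest in the control group and in the group given TDP-43 siRNA alone, and lowest in the ATP group. Prima1 kept 7.10% ± 1.63 of its control level with ATP and 9.92% ± 3.34 without it (SD, n = 3 each), with log2 fold changes of -3.80 (SE 0.23) and -3.30 (SE 0.22).

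Among the intracellular proteins, Pcp4 encodes a small neuronal peptide that binds calmodulin and speeds its exchange of calcium. Pcp4 had 3.77, 3.23 and 3.16 CPM with TDP-43 siRNA and ATP, 4.64, 2.75 and 4.04 CPM with TDP-43 siRNA, and 36.3, 51.1 and 57.3 CPM with scrambled siRNA. The control libraries were widely spread, with replicate 1 lowest. Pcp4 kept 7.02% ± 0.694 of its control level with ATP and 7.90% ± 2.00 without it (SD, n = 3 each), with log2 fold changes of -3.82 (SE 0.21) and -3.63 (SE 0.21).

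Lims2 encodes PINCH2, a LIM-domain adaptor that binds integrin-linked kinase at cell adhesions. Lims2 had 1.51, 1.08 and 1.19 CPM with TDP-43 siRNA and ATP, 1.57, 1.09 and 0.946 CPM with TDP-43 siRNA, and 12.6, 15.4 and 12.5 CPM with scrambled siRNA. The knockdown groups overlapped and were similar in spread. Lims2 kept 9.32% ± 1.66 of its control level with ATP and 8.91% ± 2.44 without it (SD, n = 3 each), with log2 fold changes of -3.41 (SE 0.26) and -3.48 (SE 0.27). Lims2 overlaps Gpr17 and Myo7b in the annotation, and whether the counting used strand is not given, so shared reads cannot be told apart. Gpr17 summed to 23 counts with TDP-43 siRNA and ATP, 25 with TDP-43 siRNA and 18 with scrambled siRNA. Myo7b summed to 0 counts in each knockdown group and 12 with scrambled siRNA.

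Lix1 is named for its expression in the developing limb of the chick. Lix1 had 0.934, 1.11 and 0.870 CPM with TDP-43 siRNA and ATP, 2.44, 1.15 and 1.89 CPM with TDP-43 siRNA, and 14.8, 13.7 and 19.7 CPM with scrambled siRNA. It was the only member whose 3 ATP libraries all lay below its 3 libraries of TDP-43 siRNA alone. The share left was 6.04% ± 0.767 with ATP and 11.4% ± 4.04 without it (SD, n = 3 each), with log2 fold changes of -4.03 (SE 0.28) and -3.10 (SE 0.27).

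The share left is set beside that of the siRNA target as a description. For all 9 genes the mean share left was below that of Tardbp in both knockdown groups. The members were chosen for large falls in these same libraries, so nothing is read from this order. Single libraries came within the range of Tardbp, whose libraries kept 12.2% to 17.5%. These were the highest ATP library of Frem3, at 14.9%, and libraries of TDP-43 siRNA alone for Lix1, Prima1 and Megf6, at 15.2%, 13.4% and 13.3%.

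**Figure D2:**
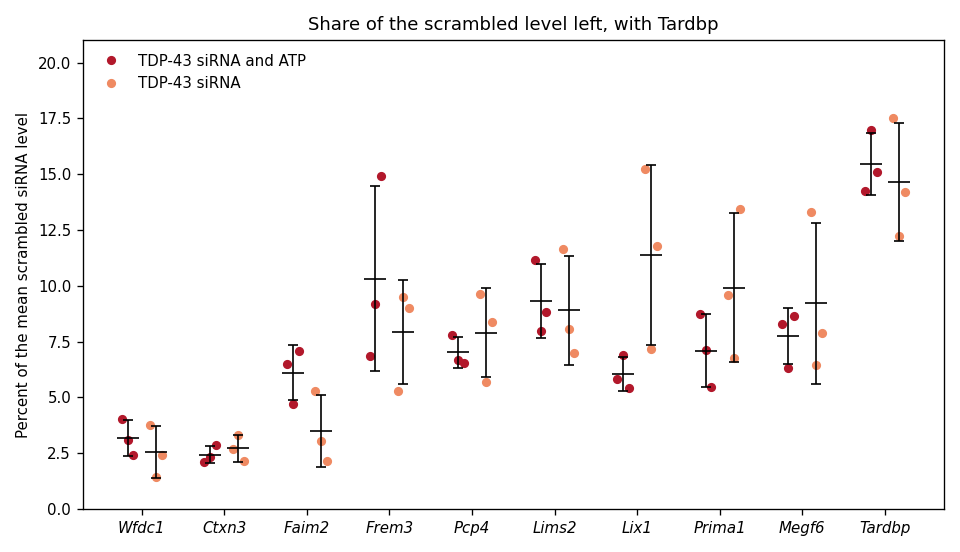
Percent of the mean scrambled siRNA level left for the 9 genes and for Tardbp. Points are libraries and bars are the mean ± SD of 3 libraries per group. The mean share left of every member, chosen for its fall, is below that of Tardbp, which is 15.5% with ATP and 14.6% without it.

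The 9 genes were also ranked among the 9624 tested genes with at least 5 CPM in the mean of the scrambled libraries. With TDP-43 siRNA and ATP, Ctxn3, Wfdc1, Faim2 and Lix1 held ranks 1 to 4 by fitted log2 fold change, and the last member, Frem3, held rank 16. With TDP-43 siRNA alone, Wfdc1, Ctxn3 and Faim2 held ranks 1 to 3 and the last member, Lix1, held rank 21. Tardbp ranked 29 in both. Less than 10% of the control level was left for 15 of these genes with ATP, 8 of them members, and for 18 without ATP, again 8 of them members. Less than 5% was left for 2 genes with ATP (Ctxn3 and Wfdc1) and 3 genes without it (Wfdc1, Ctxn3 and Faim2).

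The members' median log2 fold change was -3.82 with ATP and -3.63 without it, against 0.01 over all tested genes in each comparison. All 9 were lower, with no overlap between groups, in both comparisons, where 24.1% of tested genes with ATP and 20.9% without it were lower with no overlap. By edgeR's adjusted p of at most 0.05, 20.0% of tested genes were lower with ATP and 18.2% without it. The choice of members fixed their direction, so nothing is read from these counts. Both comparisons share the scrambled libraries.

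Genes outside the set lay in among its members. With ATP, Thrsp had a log2 fold change of -3.98, at 1.78 ± 0.0351 CPM with TDP-43 siRNA and ATP against 28.4 ± 5.002 CPM with scrambled siRNA (SD, n = 3 each). Fgg, a fibrinogen chain, had -3.94, at 0.326 ± 0.101 CPM with TDP-43 siRNA and ATP and 5.20 ± 2.13 CPM with scrambled siRNA. Without ATP, the nearest such genes were Fgg, Masp2 (a complement protease) and Thrsp, with log2 fold changes of -4.21, -3.87 and -3.71. The members are thus not a complete list of the deepest falls.

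**Figure D3:**
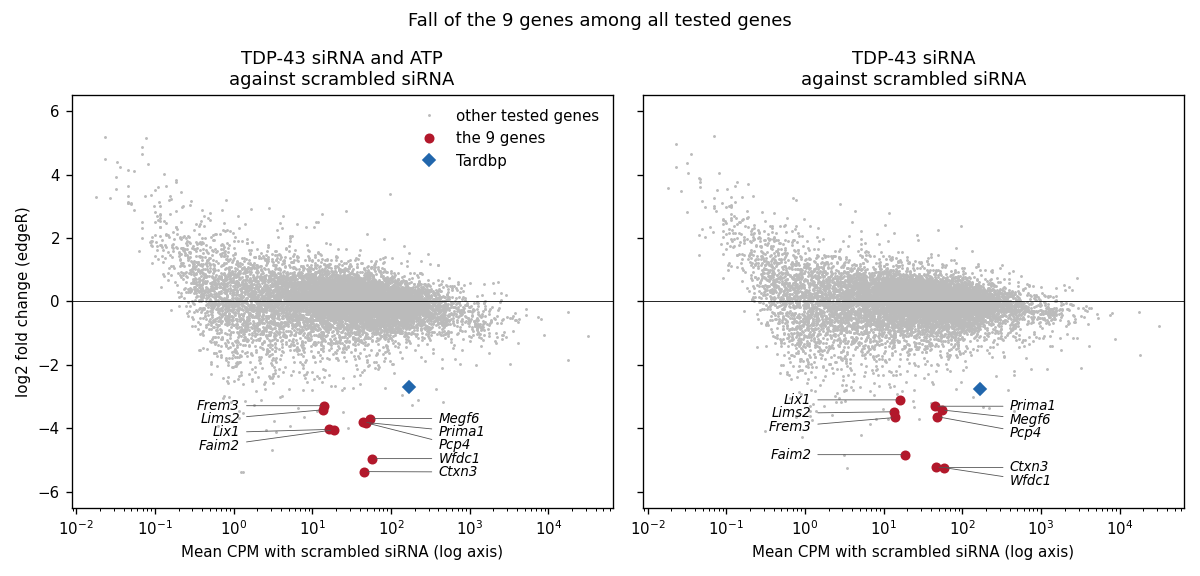
Fitted log2 fold change of every tested gene against its mean CPM with scrambled siRNA (log axis), for TDP-43 siRNA and ATP (left) and TDP-43 siRNA (right), each over scrambled siRNA. The 9 named genes lie between -5.36 and -3.10, below Tardbp, and some unnamed genes lie among or below them.

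The members varied among themselves in how the residual RNA was spread over libraries. With TDP-43 siRNA alone, the coefficient of variation over 3 libraries was 22.0% to 46.5%, and in all 9 genes it was larger than counting alone gives (9.49% to 26.7%). With TDP-43 siRNA and ATP it was 9.88% to 40.1%, and larger than counting error in 6 of 9. With scrambled siRNA it was 3.58% to 22.3%. The residual counts were 19 to 126 per gene and library with ATP and 9 to 175 without it, against 140 to 1968 with scrambled siRNA. Counting error alone is therefore a sizeable part of the residual values.

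The order of the libraries differed between the knockdown groups. With TDP-43 siRNA and ATP it was split, with replicates 1, 2 and 3 highest for 4, 1 and 4 of the 9 genes and lowest for 2, 3 and 4. With TDP-43 siRNA, replicate 1 was highest for 6 of the 9 genes and replicate 2 lowest for 5. Summed over the 9 genes, the libraries held 20.1, 17.1 and 18.5 CPM with TDP-43 siRNA and ATP, 25.4, 15.8 and 21.2 CPM with TDP-43 siRNA, and 280.01, 321 and 340 CPM with scrambled siRNA. Without ATP, the sums had the same order over replicates as Tardbp (29.6, 20.7 and 24.1 CPM). With ATP, they had the opposite order to Tardbp (24.1, 28.8 and 25.6 CPM). With scrambled siRNA, replicate 1 was lowest for 6 of the 9 genes.

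The effect of ATP in knocked-down cells was tested with edgeR's quasi-likelihood test over all 12096 tested genes, with Benjamini-Hochberg adjustment. The same libraries took part in choosing the members. In this comparison 0 of the 9 genes passed an adjusted p of 0.05, where 0.141% of tested genes were lower and 0.926% higher. At an unadjusted p below 0.05 there were 3 members (Lix1, Faim2 and Prima1), where 12.6% of all tested genes met that level. DESeq2 also called 0 members and gave 3 at the unadjusted level. The members' median log2 difference was -0.13, against -0.00075 over all tested genes, with 5 lower and 4 higher. Its direction rested on single libraries: the median was 0.093 without replicate 1 of TDP-43 siRNA and 0.0074 without replicate 2.

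Lix1 averaged 0.971 ± 0.123 CPM with TDP-43 siRNA and ATP and 1.83 ± 0.649 CPM with TDP-43 siRNA (SD, n = 3 each), a log2 difference of -0.93 (95% interval -1.56 to -0.30, edgeR adjusted p = 0.158). Its adjusted p was 0.0717 to 0.532 over 17 alternative settings. Non-overlap in the lower direction, as for Lix1, was found in 12.7% of tested genes. Faim2 averaged 1.15 ± 0.230 CPM with TDP-43 siRNA and ATP and 0.657 ± 0.305 CPM with TDP-43 siRNA, a log2 difference of 0.78 (95% interval 0.09 to 1.47, edgeR adjusted p = 0.307, range 0.182 to 0.705). Prima1 averaged 3.16 ± 0.726 CPM with TDP-43 siRNA and ATP and 4.41 ± 1.49 CPM with TDP-43 siRNA, a log2 difference of -0.50 (edgeR adjusted p = 0.389, range 0.248 to 0.847).

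For the other 6 members the edgeR intervals spanned zero. Wfdc1 differed by 0.28 on the log2 scale (-0.29 to 0.86), Frem3 by 0.37 (-0.35 to 1.09) and Lims2 by 0.06 (-0.55 to 0.67). Ctxn3 differed by -0.13 (-0.61 to 0.35), Pcp4 by -0.19 (-0.65 to 0.27) and Megf6 by -0.27 (-0.76 to 0.21). These intervals are unadjusted, and they still allow a difference of about 1 on the log2 scale for Frem3.

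**Figure D4:**
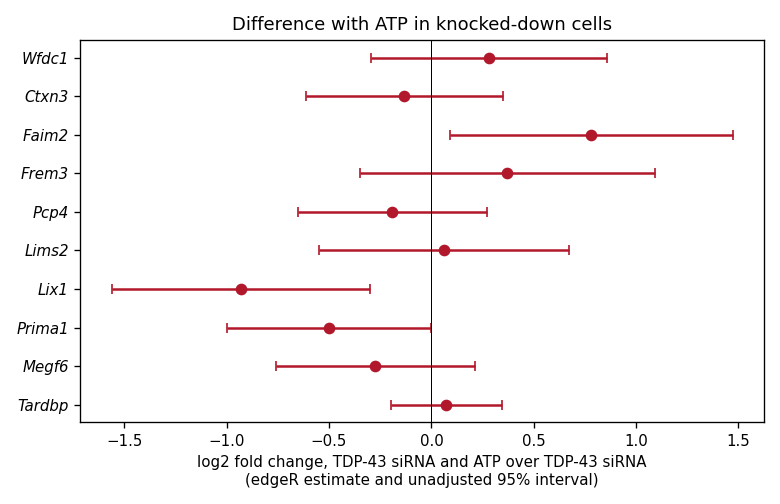
Log2 fold change of TDP-43 siRNA and ATP over TDP-43 siRNA for the 9 genes and Tardbp. Points are edgeR estimates and bars are unadjusted 95% intervals. Intervals for Lix1 and Prima1 lie below zero, that of Prima1 ending at -0.0041, and that of Faim2 lies above zero. After adjustment over all genes, 0 of the 9 passed.

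Profiles most like those of the members were sought over the 9 libraries by Pearson's r of log2 CPM with the mean member profile. Each member had an r of 0.957 (Frem3) to 0.996 (Pcp4) with the mean of the others. The most similar genes outside the set were Tardbp and Fam26e at 0.995, and Nkain4, Plxdc2 and RGD1561795 at 0.994. All 9 libraries share the same knockdown contrast, which sets most of these values. Fam26e averaged 25.5 ± 1.76 CPM with TDP-43 siRNA and ATP, 21.5 ± 5.48 CPM with TDP-43 siRNA and 220 ± 18.4 CPM with scrambled siRNA (SD, n = 3 each). The choice of similar genes was not stable: by Spearman's rho 0 of the 5 were the same, and leaving out a library kept 1 to 4 of them.

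Of 73 relatives and binding partners of the members in 9 lists, 59 could be tested. The members were picked for a fall, so the depths of both sets are not compared. The partners were listed for known links to the members, with earlier results of these data known. With TDP-43 siRNA and ATP, 15 fell (25.4%) and 6 rose (10.2%), where 20.0% of all tested genes fell and 17.4% rose (edgeR). With TDP-43 siRNA, 19 fell (32.2%) and 4 rose (6.78%), where 18.2% of all fell and 16.2% rose. The balance depended on the scaling: by total counts, 8 fell and 15 rose with ATP, and 14 fell and 11 rose without it. The partners' median log2 fold change was -0.06 with ATP and -0.19 without it, against 0.01 over all genes in both comparisons. Without replicate 3 of the ATP group, the 21 calls with ATP became 12. With ATP against without it, 0 partners passed by edgeR, 9 had an unadjusted p below 0.05, and DESeq2 called 2.

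Among partners of the secreted members, a WAP protein rose and a pair of EGF-repeat proteins fell. In the WAP family of Wfdc1, 1 of 3 tested genes rose in both comparisons and none fell, and by total counts 2 rose with ATP and 3 without it. The gene that rose by the main scaling was Wfdc2, a WAP protein of epithelia, at 9.32 ± 0.924 CPM with TDP-43 siRNA and ATP, 11.2 ± 1.23 CPM with TDP-43 siRNA and 5.87 ± 0.122 CPM with scrambled siRNA (SD, n = 3 each; edgeR adjusted p = 0.00706 with ATP and 0.000685 without it). In the FRAS and FREM list of Frem3, 0 of 5 tested genes passed in either comparison, while by total counts 2 rose with ATP and 1 without it. Fras1 had log2 fold changes of 0.09 with ATP and -0.89 without it (edgeR adjusted p = 0.869 and 0.0747). Frem2 had -0.04 with ATP and -0.48 without it (edgeR adjusted p = 0.926 and 0.225). In the EGF-repeat list of Megf6, 2 of 9 fell in both comparisons, and 1 rose without ATP. By total counts, 2 again fell in both, 1 rose with ATP and 2 rose without it. Scarf2, a scavenger receptor-like protein, was at 42.7 ± 2.13 CPM with TDP-43 siRNA and ATP, 37.5 ± 5.14 CPM with TDP-43 siRNA and 81.7 ± 10.3 CPM with scrambled siRNA. Egfl8 fell by 1.21 on the log2 scale with ATP and by 1.01 without it, while Megf9 rose by 0.54 without ATP (edgeR adjusted p = 0.0186).

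Partners of the membrane members moved in both directions. Ctxn1, the tested relative of Ctxn3, rose, at 162 ± 8.74 CPM with TDP-43 siRNA and ATP, 161 ± 29.0 CPM with TDP-43 siRNA and 121 ± 7.72 CPM with scrambled siRNA (SD, n = 3 each; edgeR adjusted p = 0.0141 with ATP and 0.0169 without it). Ctxn2 had 0 counts in every library. In the list of TMBIM relatives and Fas signalling around Faim2, 3 of 10 fell and 1 rose with ATP, and 4 fell and 0 rose without it. By total counts, 0 fell and 2 rose with ATP, and 3 fell and 1 rose without it. Grina, Tmbim1 and Tmbim4, relatives of Faim2, fell by 0.47, 0.45 and 0.34 on the log2 scale with ATP and by 0.51, 0.66 and 0.36 without it. Scaled by total counts, all of these calls with ATP and that of Tmbim4 without it were lost. Fas, the death receptor itself, fell by 0.67 without ATP (edgeR adjusted p = 0.000853) and had -0.22 with it (0.183), while Cflar, an inhibitor of its signal, rose by 0.93 with ATP (0.000913). In the cholinesterase list of Prima1, 1 of 2 tested genes fell and 0 rose in both comparisons. By total counts, 1 fell and 0 rose with ATP, and 0 fell and 1 rose without it. Acetylcholinesterase (Ache), which Prima1 anchors, was at 1.24 ± 0.158 CPM with TDP-43 siRNA and ATP, 1.73 ± 0.330 CPM with TDP-43 siRNA and 3.39 ± 0.235 CPM with scrambled siRNA. Its edgeR adjusted p was 0.00374 with ATP and 0.0364 without it, the second becoming 0.0765 when scaled by total counts. Bche went the other way without passing, with log2 fold changes of 1.72 with ATP and 2.17 without it (edgeR adjusted p = 0.119 and 0.0547).

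Partners of the intracellular members also changed in both directions. In the calmodulin list of Pcp4, 5 of 14 fell and 2 rose with ATP, and 6 fell and 1 rose without it. Scaled by total counts, 2 fell and 4 rose with ATP, and 4 fell and 2 rose without it. The largest change was that of Camk2a, a calmodulin-dependent kinase, at 1.41 ± 0.510 CPM with TDP-43 siRNA and ATP, 0.927 ± 0.305 CPM with TDP-43 siRNA and 6.75 ± 3.00 CPM with scrambled siRNA (SD, n = 3 each). Pcp4l1, the closest relative of Pcp4, fell by 0.37 on the log2 scale with ATP and by 0.68 without it (edgeR adjusted p = 0.02 and 0.000336), and the call with ATP was lost when scaled by total counts. Calm3, a calmodulin gene, fell by 0.76 with ATP and by 0.67 without it, while the kinase gene Camkk1 rose by 0.51 with ATP and by 0.59 without it. In the adhesion list of Lims2, 4 of 14 fell and 1 rose with ATP, and 6 fell and 0 rose without it, and by total counts 3 fell and 2 rose with ATP, and 5 fell and 0 rose without it. Lims1 (PINCH1), the closest relative of Lims2, did not pass, at 25.5 ± 4.44 CPM with TDP-43 siRNA and ATP, 24.5 ± 6.84 CPM with TDP-43 siRNA and 32.9 ± 2.71 CPM with scrambled siRNA. Parva, a parvin of the same complex, fell by 0.76 with ATP and by 0.71 without it, and Vcl, which encodes vinculin, fell by 0.72 with ATP and by 1.04 without it. Lix1l, the relative of Lix1, did not pass, at 214 ± 1.64 CPM with TDP-43 siRNA and ATP, 179 ± 5.06 CPM with TDP-43 siRNA and 188 ± 32.2 CPM with scrambled siRNA, but with ATP it was called higher when scaled by total counts.

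**Figure D5:**
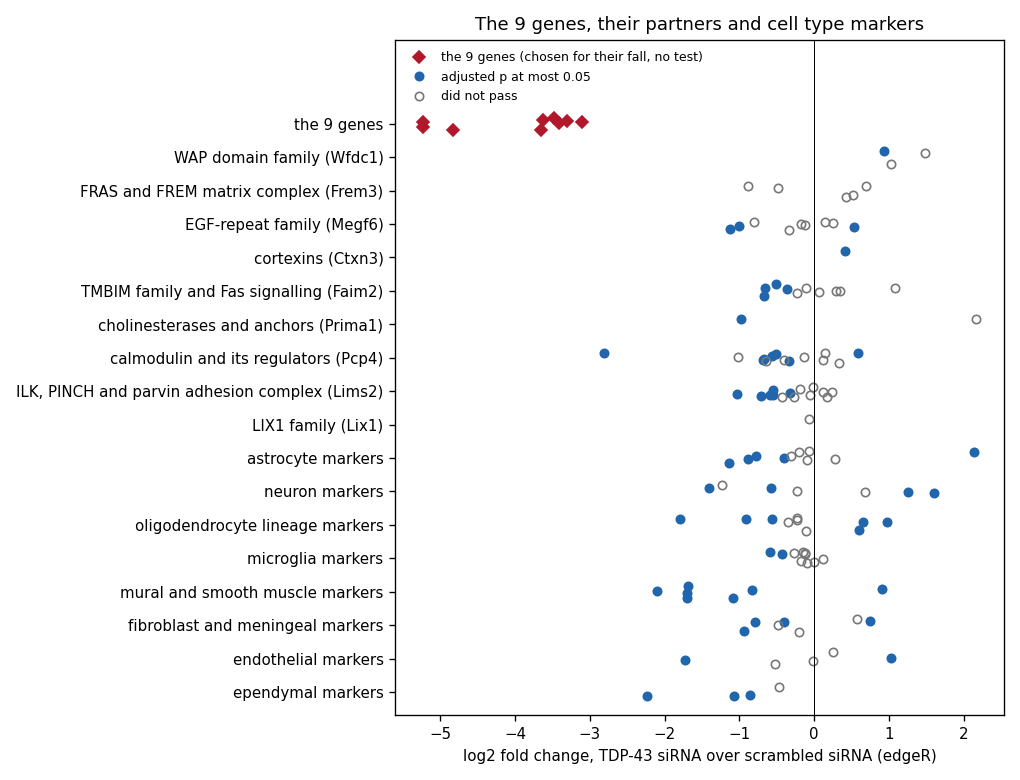
Log2 fold change of TDP-43 siRNA over scrambled siRNA for the 9 genes, for the tested genes of their 9 partner lists and for 8 cell type marker lists. Each point is a gene, filled where the edgeR adjusted p was at most 0.05 and open where it was not. The members, chosen for their fall, lie at -3.10 or below, and partners and markers lie on both sides of zero.

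Genes beside the members on the chromosome were compared to see whether the loss extended to their surroundings. Of the 18 nearest protein-coding neighbours in the RefSeq gene order, 12 could be tested, with median log2 fold changes of 0.01 with ATP and -0.06 without it. With ATP, 1 fell and 2 rose, and without it 4 fell and 2 rose (edgeR). Over all tested genes, 20.0% fell and 17.4% rose with ATP, and 18.2% fell and 16.2% rose without it. With only 12 neighbours tested, nothing is read from these counts. Slc12a2, beside Ctxn3, encodes a sodium, potassium and chloride cotransporter and was at 63.2 ± 6.98 CPM with TDP-43 siRNA and ATP, 44.7 ± 5.25 CPM with TDP-43 siRNA and 98.3 ± 3.80 CPM with scrambled siRNA (SD, n = 3 each). Sft2d3, beside Lims2, was higher, at 19.6 ± 2.59 CPM with TDP-43 siRNA and ATP, 19.2 ± 1.60 CPM with TDP-43 siRNA and 5.14 ± 1.54 CPM with scrambled siRNA. Dscam, a neuronal adhesion molecule gene beside Pcp4, was also higher, with log2 fold changes of 2.21 with ATP and 2.07 without it. Kcng4 and Atp2c2, on either side of Wfdc1, fell without ATP, by 1.45 and 1.96 on the log2 scale (edgeR adjusted p = 0.0467 and 0.0201). Both were low in every group, averaging 0.753 and 0.284 CPM with TDP-43 siRNA and 2.15 and 1.11 CPM with scrambled siRNA. With ATP neither passed (edgeR adjusted p = 0.0923 and 0.0575). The fourth to fall without ATP was Tprg1l, beside Megf6.

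Markers of other cells that a primary astrocyte culture can hold moved with the knockdown too. Over all tested genes, 20.0% fell and 17.4% rose with ATP, and 18.2% fell and 16.2% rose without it (edgeR). Of 7 tested mural and smooth muscle markers, 6 fell and 1 rose in both comparisons, and the summed level of the list was 6185 to 6832 CPM with TDP-43 siRNA and ATP, 5520 to 7953 CPM with TDP-43 siRNA and 21615 to 23075 CPM with scrambled siRNA. Tagln made up most of that sum, averaging 5002 CPM with TDP-43 siRNA and ATP, 5502 with TDP-43 siRNA and 17866 with scrambled siRNA. Des, the marker that rose, averaged 5.20 CPM with TDP-43 siRNA and ATP, 4.72 with TDP-43 siRNA and 2.41 with scrambled siRNA. Rgs5, Kcnj8 and Abcc9, also in the list, were too low to test in these cultures, with at most 22 counts summed over any group. Acta2, smooth muscle actin, averaged 831 ± 16.4 CPM with TDP-43 siRNA and ATP, 751 ± 175 CPM with TDP-43 siRNA and 3221 ± 679 CPM with scrambled siRNA (SD, n = 3 each). Of 4 ependymal markers, 3 fell in both comparisons. The list summed to 93.3 to 108 CPM with TDP-43 siRNA and ATP, 89.9 to 128 CPM with TDP-43 siRNA and 190.01 to 205 CPM with scrambled siRNA. Foxj1 made up most of these sums, averaging 85.4 CPM with TDP-43 siRNA and ATP, 93.9 with TDP-43 siRNA and 170 with scrambled siRNA. The median log2 fold change of the mural list was -1.84 with ATP and -1.69 without it, and that of the ependymal list was -0.94 with ATP and -0.96 without it. Their part in the members' loss was not tested.

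The other marker lists moved less. Their counts stand beside 20.0% of all tested genes falling and 17.4% rising with ATP, and 18.2% and 16.2% without it (edgeR). Each list held at most 10 tested genes, so nothing is read from counts near these shares. Astrocyte markers summed to 6572 to 7248 CPM with TDP-43 siRNA and ATP, 6110 to 7085 CPM with TDP-43 siRNA and 7874 to 8039 CPM with scrambled siRNA, with 3 of 10 falling and 1 rising with ATP, and 4 falling and 1 rising without it (by total counts 3 and 1 with ATP, and 3 and 2 without it). Neuronal markers, of interest because Pcp4 and Faim2 are best known from neurons, summed to 482 to 549 CPM with TDP-43 siRNA and ATP, 439 to 551 CPM with TDP-43 siRNA and 486 to 629 CPM with scrambled siRNA, and the groups overlapped. Stmn2 made up most of that sum, averaging 445 CPM with TDP-43 siRNA and ATP, 437 with TDP-43 siRNA and 512 with scrambled siRNA. The overlap of the sums is therefore mainly that of Stmn2. Of 7 tested, 1 fell and 1 rose with ATP, and 2 fell and 2 rose without it (by total counts 0 and 2 with ATP, and 1 and 2 without it). By the main scaling, Map2 fell and Tubb3 rose in both comparisons, and without ATP Gad1 also fell and Nefl also rose. Rbfox3, Eno2 and Slc17a7 were too low to test. Oligodendrocyte lineage markers had 1 of 10 falling and 2 rising with ATP, and 3 falling and 3 rising without it. By total counts, these became 1 falling and 5 rising with ATP, and 2 falling and 3 rising without it. Microglial markers had 2 of 10 falling and 2 rising with ATP, and 2 falling and 0 rising without it, and by total counts 1 falling and 2 rising with ATP, and 0 falling and 0 rising without it. Fibroblast markers had 3 of 7 falling and 0 rising with ATP, and 3 falling and 1 rising without it (by total counts 2 and 1 with ATP, and 2 and 2 without it), with Col1a2 and Ogn listed at 0 in every library. Endothelial markers had 1 of 5 falling and 0 rising with ATP, and 1 falling and 1 rising without it (by total counts 1 and 1 in both comparisons), with Cldn5 listed at 0 in every library.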

How the data were processed

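Poly(A) RNA of 9 libraries in 3 groups was used. The deposited values are whole-number counts per gene, which the authors did not normalize. Per the submitters' processing notes, Trimmomatic, TopHat2, Bowtie2 and DESeq2 were used with genome build rn6. The counting tool, its use of strand and its treatment of reads with several matches are not given in the sources used for this work. Of the rows, 26 carry dates in place of gene symbols (0.286% to 0.331% of counts) and were left out, which leaves 17311 genes.

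Groups were fitted together in edgeR 4.0.16 (R 4.3.3, limma 3.58.1) with scaling by the trimmed mean of M-values, its low-count filter (12096 genes tested) and the quasi-likelihood test, with Benjamini-Hochberg adjustment over all tested genes. The fit was tested on simulated data. The low counts of the members after knockdown (9 to 175) limit their precision, and intervals of counts are exact Poisson at 95% and cover counting error only. No pair of replicates agreed within sampling noise (lowest chi-square per degree of freedom 11.0). DESeq2 1.42.0, other scalings, other filters, the replicate number as a block and each library left out were tried as alternatives.

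The members and lists were chosen with earlier results of these data known. Besides members and Tardbp, the text names the 3 deepest falls outside the set per knockdown comparison, up to 4 changed genes per partner list and each closest relative, the 5 most similar profiles and defining markers. A gene that this rule picks is not reported here. The neighbours named were chosen after their values were seen. Symbols were matched to RefSeq (assembly GRCr8) for 16921 of 17311 genes, for neighbour order and promoter sequence alone. Figures were drawn with matplotlib 3.10.9.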

Additional observations from a re-analysis of the deposited data

How the results depend on the processing

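All 9 members kept a negative log2 fold change in both knockdown comparisons under all alternatives run. The share of the control level left, computed for 12 of the alternatives, was 1.94% to 13.5%. For ATP in knocked-down cells, 0 members were called under any alternative run. Leaving out a library gave a member median of -4.00 to -3.74 with ATP, -3.80 to -3.47 without it and -0.16 to 0.093 for ATP against no ATP. Genes called over all genes then numbered 1759 to 2498 lower and 1481 to 2285 higher with ATP, and 1687 to 2342 lower and 1400 to 2089 higher without it; partners called numbered 12 to 22 with ATP and 18 to 24 without it. For ATP in knocked-down cells, the main counts of 17 lower and 112 higher became 0 to 226 lower and 21 to 275 higher, with 0 to 3 partners; without any 1 of the 6 knockdown libraries they were 0 to 5 lower and 21 to 48 higher (fewest without replicate 2 of the ATP group), without scrambled replicate 1 they were 226 and 275, and without scrambled replicate 2 37 were lower. Other counts there were 156 lower, 262 higher and 2 partners with DESeq2, 386 lower, 431 higher and 7 partners with only those groups in the fit, and 36 lower with no filter. Scaling by total counts alone moved the median of all genes to 0.24 (log2) with ATP and 0.18 without it, gave 1400 lower and 4099 higher with ATP (main 2415 and 2106) and 1436 lower and 3427 higher without it (main 2198 and 1956), and moved the member median with ATP to -3.60. With only those groups in the fit, 1300 genes were higher without ATP. The cause of these shifts was not tested. Same-numbered libraries deviated from their group means with r of -0.152 to 0.118. These values show no pairing by number, but with 3 libraries per group they cannot exclude it. A replicate block gave 6 lower and 62 higher for ATP. Residual levels rest on few counts per library, which limits comparisons between members.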
